A study of Malus domestica with 12 samples.

Results

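Apple buds sampled at late ecodormancy (Stage 4) were compared here with buds sampled at late endodormancy (Stage 2), small RNA by small RNA. The comparison takes the 3 libraries labelled Late Ecodormancy (J, K and L, 1395 chilling hours) and the 3 labelled Late Endodormancy (D, E and F, 1098 chilling hours), which are 6 of the 12 libraries of the series. The other 6 libraries are from early endodormancy (Stage 1, A to C, 665 chilling hours) and early ecodormancy (Stage 3, G to I, 1280 chilling hours). They entered the filter on low counts, the TMM scaling between libraries and the estimate of the spread, so some sequences scarce in the 6 libraries were tested as well. Their values are given for the sequences called. All samples are apical floral buds of orchard-grown 'Golden Delicious' trees (Malus domestica) from a single winter, with no treatment, and each library is a pool of buds from several trees. Library letters follow the order of the count columns, which the authors' list of libraries ties to a stage but not to a replicate number. Small RNAs were purified with TraPR, a method that relies on the binding of small RNAs to ARGONAUTE proteins. The reads therefore describe loaded small RNA and not the whole small RNA pool. Each stage was sampled on 1 date, so stage, date, temperature and accumulated chilling cannot be told apart, and p-values measure only the spread between pools of the same date.

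In endodormancy a bud does not resume growth even in the warmth, because the block lies within the bud. Chilling lifts that block, and in ecodormancy the bud is held back only by cold weather and grows when warmed. Plant microRNAs (miRNAs) are cut from a folded precursor, the hairpin, by a DICER-LIKE protein that releases a short duplex. One strand, the mature miRNA, is loaded into ARGONAUTE and guides it to messenger RNAs with a nearly complementary site, while the strand from the opposite arm, the star strand, is mostly degraded. Small RNAs of 21 or 22 nucleotides mainly act on messenger RNA, whereas those of 24 nucleotides are mostly linked to DNA methylation.

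The deposited tables held 370 distinct mature sequences, of which 307 had a read in the 6 libraries and 238 passed the filter on low counts and were tested. Stage 2 libraries held between 985517 and 1727740 mature reads, and Stage 4 libraries between 572804 and 2307267. Libraries D and L, 1 of each stage, stood apart from the other 4. They had the most mature reads of the 6, 1727740 and 2307267, but the fewest distinct sequences. They held 174 and 191 distinct sequences, against 236 to 276, and the miR166 family took 89.9% and 91.4% of their mature reads, against 78.4% to 86.8%. Values without D, or without D and L, are given beside the results they move most.

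Between the stages 6 of the 238 sequences passed an adjusted p of 0.05 (2.52%), 4 of them higher at Stage 4 (1.68%) and 2 lower (0.84%). The test was the quasi-likelihood F test of edgeR, adjusted by the Benjamini-Hochberg method over all 238. Under 4 other scalings 2 to 4 sequences were higher and none lower. At an unadjusted p of 0.05 or less, 17 sequences stood out (7.14%), 10 of them higher (4.2%) and 7 lower (2.94%). The Stage 4 libraries lay wholly above those of Stage 2 in 18 sequences (7.56%) and wholly below them in 13 (5.46%). The median log2 fold change of all sequences tested was -0.07. Without libraries D and L, 4 sequences were higher and none lower at an adjusted p of 0.05, and 26 were higher and 7 lower at an unadjusted p of 0.05 or less. Whole buds were sampled, so more cells that make a small RNA and more of it per cell cannot be told apart. The sequences of the 6 are printed first, because names from different databases can hide how close or distant the small RNAs are, with bases 2 to 8 (the seed) in capitals. Prefixes give the plant of the database entry (mdm apple, ptc poplar), and names starting with t and a number are sequences without a database entry.
t11329296_x5768: tATATGGAgggaaatatggtg
mdm-miR5225c: tCTGTCGTgggtgagatggtgc
ptc-miR159d: cTTGGATTgaagggagctcct
mdm-miR390e: aAGCTCAGgagggatagcgcc
t00205877_x43290: aCGGTGATaaatagggtagtgagc
t08515395_x8579: cACTTGCTccccttctccaac

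No seed was shared among these 6. The most abundant member of the miR159 family and the shorter form of ptc-miR159d carry the same seed as ptc-miR159d and are shown for that reason.
mdm-miR159d: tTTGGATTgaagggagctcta
mdm-miR159a: cTTGGATTgaagggagctcc

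**Figure D1:**
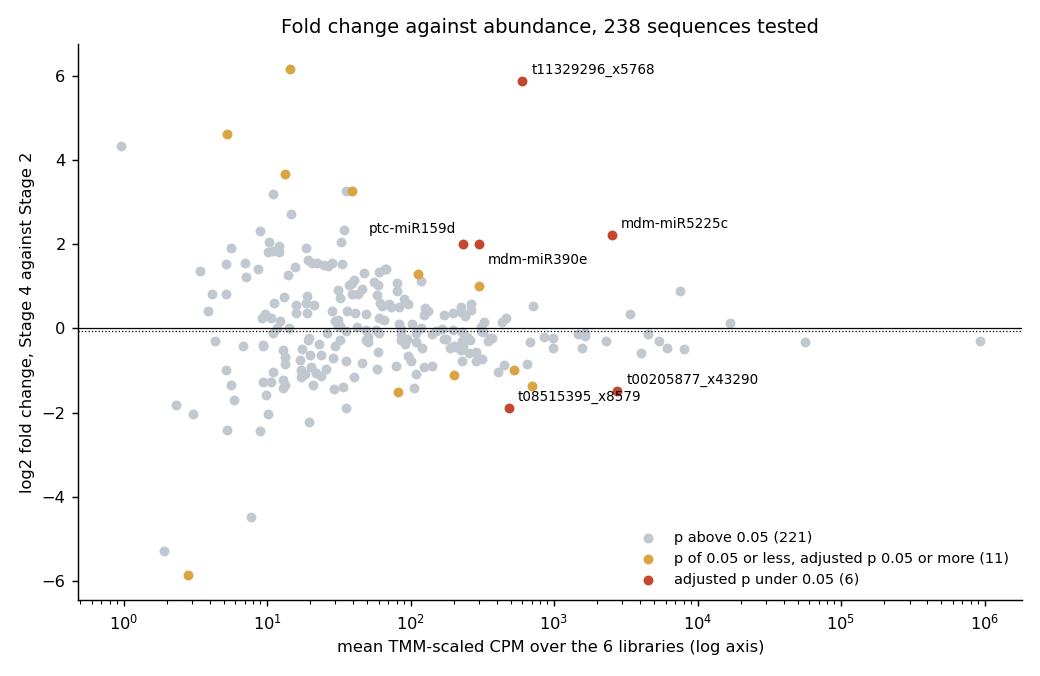
Log2 fold change, Stage 4 against Stage 2 (vertical axis), against the mean TMM-scaled CPM over the 6 libraries (horizontal log axis) for the 238 sequences tested, each point 1 sequence; the dotted line is their median, -0.07. The 6 sequences with an adjusted p under 0.05 are named, and the fold changes of sequences at the far left rest on few reads.

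The sequence that rose most was t11329296_x5768, a 21-nucleotide RNA with no database name. Its level, in counts per 1000000 reads of the effective library size (CPM, scaled by TMM), was 33.4, 12.02 and 14.8 in D, E and F and 999, 1009 and 1540 in J, K and L. No Stage 2 library came near a Stage 4 library, and the mean was 58.9-fold higher at Stage 4. The log2 fold change was 5.87 (SE 0.568, n = 3 libraries per stage, edgeR adjusted p = 1.76e-07). At Stage 1 the sequence was at 29.96 ± 4.27 CPM (SD, n = 3), and at Stage 3 its mean was 238 ± 97.9, between Stages 2 and 4. It passed the threshold in all 23 alternative settings in which it was tested, with log2 fold changes from 5.60 to 6.88.

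The precursor assigned to it spans 186 nucleotides on the plus strand of chromosome 8, chr8:11111445-11111630 in the apple genome GDDH13 v1.1, and is printed because it holds 2 listed small RNAs of very different standing. Whether it folds into a stem-loop typical of miRNAs was not tested here.
precursor of t11329296_x5768: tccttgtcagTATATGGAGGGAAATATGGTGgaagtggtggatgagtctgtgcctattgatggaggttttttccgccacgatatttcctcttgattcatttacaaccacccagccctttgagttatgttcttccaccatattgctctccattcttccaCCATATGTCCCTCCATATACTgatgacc
The first run of capitals, bases 11 to 31, is t11329296_x5768. The second, bases 159 to 179, is mdm-miR10987, an apple miRNA of the databases. Of the 6 libraries mdm-miR10987 had reads only in F, where it had 5, so it was too rare to be tested. The sequence without a database name therefore carried nearly all mature reads of this precursor.

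mdm-miR5225c rose as well. It is a 22-nucleotide apple miRNA, a length that in Arabidopsis is known to favour the production of secondary small RNAs from the target. Its level was 965, 851 and 871 CPM at Stage 2 and 3285, 5807 and 3444 CPM at Stage 4. The stages did not overlap, and the 3 Stage 2 libraries lay within a narrow band. The mean was 4.66-fold higher, a log2 fold change of 2.22 (SE 0.447, edgeR adjusted p = 0.00699). Without library K the adjusted p was 0.0742 at a log2 fold change of 1.90. At Stage 3 its mean was already 4367 ± 2473 CPM (SD, n = 3), with library H at 1517 and G and I at 5948 and 5636, and at Stage 1 it was 1574 ± 404.

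The hairpin of mdm-miR5225c lies at chr9:2851317-2851414 on the plus strand, with the mature strand in capitals.
precursor of mdm-miR5225c: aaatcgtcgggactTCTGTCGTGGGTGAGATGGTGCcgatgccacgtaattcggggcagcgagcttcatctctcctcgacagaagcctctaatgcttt

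mdm-miR390e is the apple form of miR390, which in Arabidopsis is loaded into AGO7 and starts the production of the small RNAs from TAS3 transcripts that restrain auxin response factors. Its level was 71.4, 73.0 and 213 CPM at Stage 2 and 495, 563 and 380 CPM at Stage 4. Library F was about as high as the buds of Stages 1 and 3 (168 ± 13.1 and 174 ± 44.5 CPM, SD, n = 3), and still below all libraries of Stage 4. The mean was 4.02-fold higher at Stage 4, a log2 fold change of 2.01 (SE 0.500, edgeR adjusted p = 0.0332). The call was lost without library E, J or K, with adjusted p of 0.241, 0.0562 and 0.164, when scaled to total mature reads (0.0746) or to the reads of the sample table (0.0881), and with the 6 libraries fitted alone (0.129).

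Precursors holding mdm-miR390e were deposited for chromosomes 3, 4, 11 and 12, so the locus behind its reads is not resolved. The one on chromosome 3 (chr3:4486233-4486344, plus strand) is shown as an example.
precursor of mdm-miR390e: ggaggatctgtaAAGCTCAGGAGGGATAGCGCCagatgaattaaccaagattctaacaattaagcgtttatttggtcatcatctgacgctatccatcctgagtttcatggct

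ptc-miR159d, a form of miR159, also rose. miR159 guides the cleavage of transcripts of GAMYB-like transcription factors, which act in gibberellin and abscisic acid responses. Its level was 101, 85.8 and 88.9 CPM at Stage 2 and 269, 404 and 443 CPM at Stage 4, and the stages did not overlap. The mean was 4.04-fold higher, a log2 fold change of 2.01 (SE 0.477, edgeR adjusted p = 0.0284). The call was lost without library E, F or K, with adjusted p of 0.157, 0.111 and 0.148, when scaled to the reads of the sample table (0.0797), and with the 6 libraries fitted alone (0.0855). Means at Stages 1 and 3 were 97.7 ± 29.2 and 155 ± 28.3 CPM (SD, n = 3).

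ptc-miR159d was a minor form. Over the 6 libraries it had 1725 reads, mdm-miR159a had 55596 and mdm-miR159d had 398595. None of the 199 deposited precursors holds the 21 bases of ptc-miR159d, and mdm-miR159a, which is contained in it, lies in 2 of them. The base after mdm-miR159a is G in the precursor on chromosome 1 and A in that on chromosome 7. The final T of ptc-miR159d is thus in neither. mes-miR319h (2148 reads) and psi-miR159 (175 reads) each differ from ptc-miR159d by 1 base. Reads with 1 changed or added base may be counted under any of these names. How the counting treated them is not given in the sources used here. Predicted target sites of ptc-miR159d in a pair of apple MYB genes are printed 5′ to 3′, with the bases that pair with the miRNA in capitals.
site in MD07G1085000: cGGAGCUCCCUUCAcUCCAAu
site in MD02G1269700: uGGAGCUCCCUUCAcUCCAAu
Each pairs with ptc-miR159d at 18 of 21 bases, with an unpaired base within the seed. The last base of ptc-miR159d, which mdm-miR159a lacks, is unpaired in both sites. mdm-miR159a therefore pairs with them at the same bases, and the sites do not tell these forms apart. Messenger RNA was not part of these data.

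The other miR159 forms did not move as one. mdm-miR159a was at 10260, 3317 and 2308 CPM in D, E and F and at 8240, 7031 and 14374 in J, K and L, overlapping between stages through D (log2 fold change 0.90, edgeR adjusted p = 0.809). Without library D its log2 fold change was 2.27 and its adjusted p 0.0404. mdm-miR159d was at 67521, 63285 and 57302 CPM against 36899, 55566 and 58543, with a log2 fold change of -0.32 (edgeR adjusted p = 0.904). Summed over the family, miR159 had a log2 fold change of 0.18 (SE 0.367, edgeR adjusted p = 0.945 over 164 families).

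Another product comes from the same hairpin as mdm-miR159a. In the precursor at chr1:18000169-18000347 (plus strand), mdm-miR159c takes bases 132 to 152 and mdm-miR159a bases 153 to 172, so the 2 small RNAs abut, and both are in capitals.
precursor of mdm-miR159a: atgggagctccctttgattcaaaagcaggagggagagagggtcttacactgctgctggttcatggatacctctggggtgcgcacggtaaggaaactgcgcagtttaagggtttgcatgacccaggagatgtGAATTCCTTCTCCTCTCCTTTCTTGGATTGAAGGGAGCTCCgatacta
mdm-miR159c was at 107, 31.8 and 58.3 CPM at Stage 2 and 148, 136 and 197 at Stage 4, without overlap, and did not pass the adjustment (log2 fold change 1.29, unadjusted p = 0.0454, edgeR adjusted p = 0.635). Without library D its log2 fold change was 2.24. Per 1000 reads of mdm-miR159a there were 10.4, 9.58 and 25.2 reads of mdm-miR159c at Stage 2 and 17.9, 19.3 and 13.7 at Stage 4. The 2 neighbours thus kept a ratio that overlapped between the stages.

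Set against mdm-miR159d within each library, the minor form separated the stages, as did the other called sequences and the uncalled mdm-miR159c. There were 1.50, 1.36 and 1.55 reads of ptc-miR159d per 1000 of mdm-miR159d in D, E and F and 7.30, 7.26 and 7.57 in J, K and L. The ratio was 5.02-fold higher at Stage 4, with a spread of 0.101 (SD) at Stage 2 and 0.166 at Stage 4, and D and L did not stand apart in it. Against mdm-miR159a the ratio overlapped, with 9.87, 25.9 and 38.5 per 1000 at Stage 2 and 32.7, 57.4 and 30.8 at Stage 4. These ratios were chosen after the values were seen, among 15 computed, and carry no test. The called sequences and mdm-miR159c had already separated the stages in CPM over the same libraries. Their separation as ratios is therefore not independent support.

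**Figure D2:**
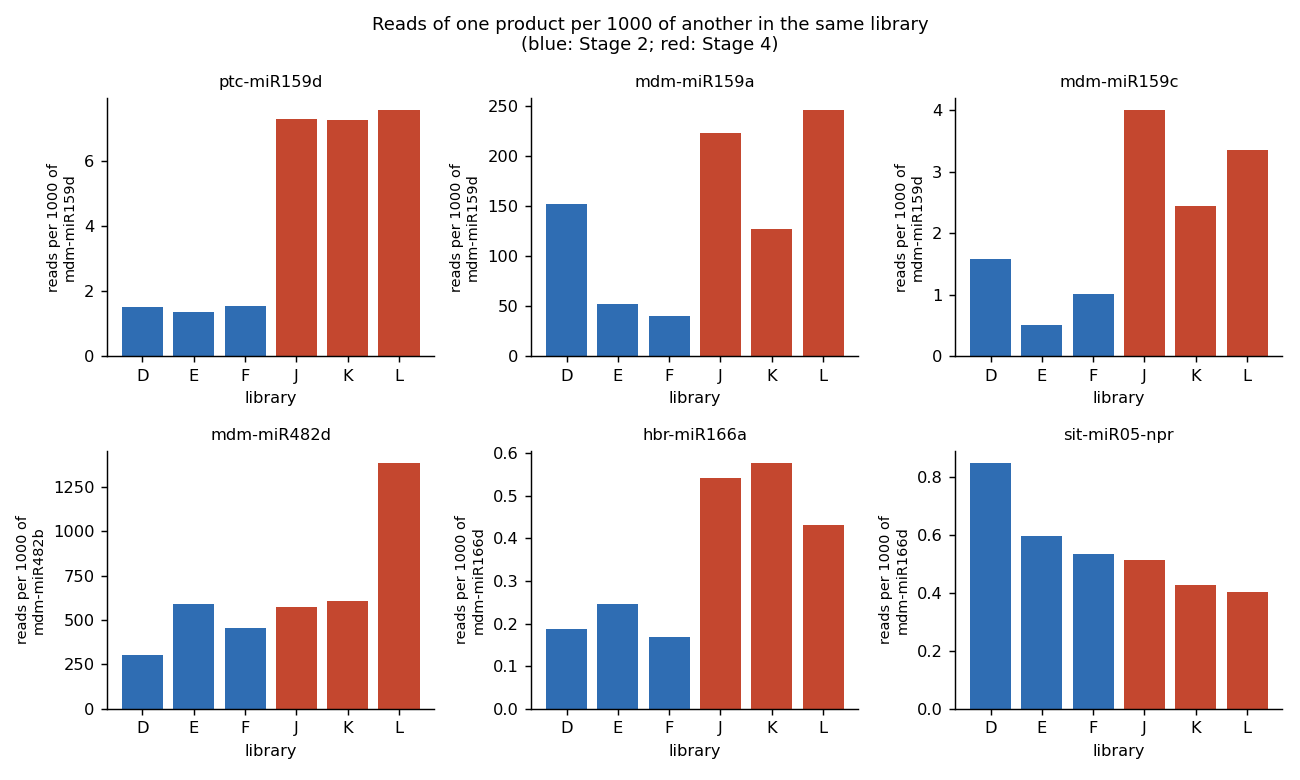
Reads of 1 small RNA per 1000 reads of another in the same library (vertical axes, linear, from 0) for libraries D, E and F of Stage 2 (blue) and J, K and L of Stage 4 (red); each bar is 1 library. ptc-miR159d lies between 1.36 and 1.55 at Stage 2 and between 7.26 and 7.57 at Stage 4, while mdm-miR159a overlaps through library D.

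A sequence of 24 nucleotides, t00205877_x43290, was lower at Stage 4. Its level was 3069, 5217 and 3916 CPM at Stage 2 and 1375, 1604 and 1414 CPM at Stage 4, so that all Stage 4 libraries lay below and close together. The mean was 2.78-fold lower, a log2 fold change of -1.47 (SE 0.373, edgeR adjusted p = 0.0332). The call did not hold under any of the 4 other scalings (adjusted p from 0.0781 to 0.705), nor without library A, C, D, E, F, J, K or L, where adjusted p ranged from 0.131 to 0.342. It was also lost without both D and L (0.141), with no filter (0.322) and with the 6 libraries fitted alone (0.0855), while the log2 fold change stayed between -1.55 and -1.12 over all alternatives. At Stages 1 and 3 it was at 2922 ± 534 and 3524 ± 1513 CPM (SD, n = 3).

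Its hairpin lies at chr7:29787418-29787568 on the plus strand and is shown with the small RNA in capitals, at bases 99 to 122.
precursor of t00205877_x43290: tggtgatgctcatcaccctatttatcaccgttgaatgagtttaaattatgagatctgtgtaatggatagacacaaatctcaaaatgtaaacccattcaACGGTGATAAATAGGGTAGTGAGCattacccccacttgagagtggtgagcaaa

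The second sequence that fell was t08515395_x8579, a 21-nucleotide RNA without a database name. Its level was 1322, 430 and 542 CPM at Stage 2 and 157, 188 and 279 CPM at Stage 4. All Stage 4 libraries were below all of Stage 2, where D was more than E and F together. The mean was 3.68-fold lower, a log2 fold change of -1.88 (SE 0.485, edgeR adjusted p = 0.0333). Without library D the log2 fold change was -0.80 and the adjusted p 0.653, and without both D and L they were -1.18 and 0.229. The call was also lost without library A, C, H, J, K or L (adjusted p from 0.0512 to 0.314), under the 4 other scalings (0.0584 to 0.208), with no filter (0.0665), in DESeq2 (0.0503) and with the 6 libraries fitted alone (0.129). At Stages 1 and 3 it was at 661 ± 234 and 633 ± 262 CPM (SD, n = 3).

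The hairpin of t08515395_x8579 (chr12:29101808-29101937, plus strand) holds mdm-miR164c on its other arm. miR164 acts on NAC transcription factors of the CUC group, which set boundaries between organs in Arabidopsis. Both arms are in capitals, mdm-miR164c at bases 25 to 45 and t08515395_x8579 at bases 90 to 110.
precursor of t08515395_x8579: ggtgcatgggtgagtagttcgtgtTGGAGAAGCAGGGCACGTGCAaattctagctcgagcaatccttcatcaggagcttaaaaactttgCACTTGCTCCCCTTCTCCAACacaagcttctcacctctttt
mdm-miR164c itself was at 144, 394 and 289 CPM at Stage 2 and 92.9, 151 and 140 CPM at Stage 4. The stages overlapped only through D and K (log2 fold change -1.11, SE 0.482, unadjusted p = 0.0319, edgeR adjusted p = 0.614). It also lies in 4 other deposited precursors, so its reads cannot be assigned to this hairpin. Per 1000 reads of mdm-miR164c there were 9195, 1092 and 1874 reads of t08515395_x8579 in D, E and F and 1689, 1247 and 1986 in J, K and L, and D alone stood apart.

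**Figure D3:**
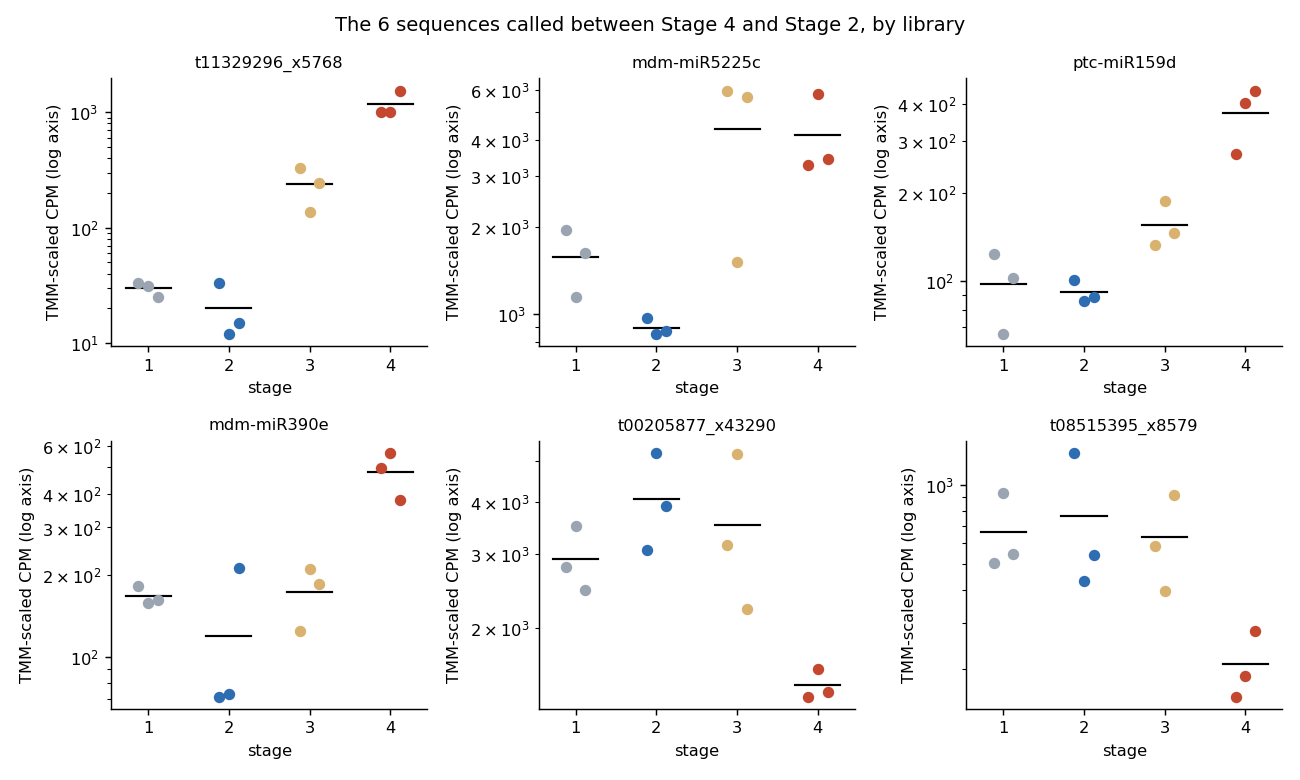
TMM-scaled CPM (log axes) of the 6 sequences with an adjusted p under 0.05, by stage, with each point 1 library and each bar the mean of 3. The Stage 4 libraries lie above all Stage 2 libraries for t11329296_x5768, mdm-miR5225c, ptc-miR159d and mdm-miR390e, and below them for t00205877_x43290 and t08515395_x8579.

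The remaining 11 sequences with an unadjusted p of 0.05 or less did not pass the adjustment, and 5 of them had few reads. mdm-miR395l, of the family that acts on ATP sulfurylase and a sulfate transporter, had 1, 0 and 0 reads at Stage 2 and 22, 22 and 67 at Stage 4 (edgeR adjusted p = 0.175), with no fold given because Stage 2 holds 1 read in all. The edgeR likelihood ratio test and DESeq2 called it, with adjusted p of 0.0176 and 0.00678. At Stage 1 it was at 6.76, 12.4 and 8.04 CPM, above all libraries of Stage 2, and at Stage 3 at 28.9, 0 and 17.7 CPM.

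ppe-miR858, of a family that acts on MYB transcription factors of flavonoid synthesis, had 0, 21 and 4 reads against 97, 81 and 74 (edgeR adjusted p = 0.606). It differs by 1 base from ath-miR858b (4853 reads), which may share its reads. Summed over the family, miR858 had a log2 fold change of 0.39 (edgeR adjusted p = 0.943). bdi-miR159a-3p had 1, 1 and 4 reads against 32, 52 and 1, and lus-miR167a had 0, 0 and 1 against 22, 10 and 0, so that library L was at or below the Stage 2 level in both. At Stage 1 bdi-miR159a-3p had 11, 19 and 25 reads and lus-miR167a had 13, 12 and 21, more than in any Stage 2 library. t03063567_x79 had 0, 14 and 5 reads at Stage 2 and none in the 3 Stage 4 libraries, where the limit that a count of 0 allows was 5.24, 3.14 and 1.30 CPM before TMM scaling. It lies inside the precursors of mdm-miR319a on chromosomes 3 and 11.

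Of the more abundant ones, the 24-nucleotide t00969484_x10829 was at 564, 1324 and 1145 CPM at Stage 2 and 406, 545 and 235 at Stage 4, without overlap (log2 fold change -1.35, SE 0.452, edgeR adjusted p = 0.200). The 24-nucleotide t05988915_x1147 was at 200, 103 and 60.2 CPM against 64.0, 42.8 and 20.4, overlapping through F and J (log2 fold change -1.52, edgeR adjusted p = 0.614). Its log2 fold change was -0.56 without library D and -0.26 without D and L. It differs by up to 2 bases from 8 other sequences of the tables, which may share its reads.

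The last pair belongs to miR166, the regulator of HD-ZIP III factors that set organ polarity and meristem identity. hbr-miR166a is mdm-miR166d without its final bases, and sit-miR05-npr starts upstream of it.
mdm-miR166d: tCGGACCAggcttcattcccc
hbr-miR166a: tCGGACCAggcttcattcc
sit-miR05-npr: tTTCGGACcaggcttcattcc
hbr-miR166a was at 263, 169 and 164 CPM at Stage 2 and 250, 346 and 613 at Stage 4 (log2 fold change 1.02, edgeR adjusted p = 0.614). sit-miR05-npr was at 1184, 412 and 519 CPM against 236, 257 and 572 (log2 fold change -0.99, edgeR adjusted p = 0.635), and D and L were the highest library of their stage. Without library D the log2 fold changes were 1.72 for hbr-miR166a and 0.055 for sit-miR05-npr. Both overlapped between the stages in CPM.

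Within each library the forms were steadier. The ratios given here are also among the 15 computed and chosen after the values were seen, and carry no test. Most of those 15 did not overlap between the stages, but the called sequences and mdm-miR159c among them had no overlap in CPM either. In CPM, of all 238 sequences tested, 7.56% lay wholly above and 5.46% wholly below at Stage 4. The count among the 15 thus reflects how the ratios were picked. Per 1000 reads of mdm-miR166d there were 0.188, 0.245 and 0.169 reads of hbr-miR166a at Stage 2 and 0.543, 0.576 and 0.431 at Stage 4, a 2.57-fold higher mean with no overlap. For sit-miR05-npr there were 0.848, 0.598 and 0.536 at Stage 2 and 0.514, 0.428 and 0.402 at Stage 4, lower in all 3 but by little between F and J. Reads of aly-miR166a-5p, from the other arm of miR166 hairpins, were 0.0582, 0.0859 and 0.0938 per 1000 of mdm-miR166d against 0.105, 0.165 and 0.140, also without overlap. mdm-miR166d had 6628112 reads over the 6 libraries, and such forms are a very small part of it.

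Its own level was 1396810, 689213 and 968998 CPM against 459818, 599699 and 1422300 (log2 fold change -0.30, edgeR adjusted p = 0.909), and without library D the log2 fold change was 0.45. CPM is set against the effective library size, and D and L, the libraries with the highest values, had TMM factors of 0.640 and 0.639. The miR166 share of mature reads, miR165 included, was 86.3% ± 3.97 (SD, n = 3) at Stage 2 and 83.2% ± 7.14 at Stage 4. The difference of -3.04 percentage points was within the spread (exact two-sided permutation test, p = 0.6, with 0.1 the smallest p that 3 against 3 libraries allow). Products of miR166 hairpins under other names, such as sit-miR05-npr and sit-miR58-1-npr, are not in this share and count as reads outside miR166. They are also not in the lists of families.

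Families were also grouped into lists by the known roles of their targets, and the calls in each list stand beside 6 of 238 (2.52%) for all sequences. miR159 and miR319, regulators of GAMYB-like and TCP factors, had 24 sequences tested, of which 1 rose and none fell, with a median log2 fold change of -0.08 beside -0.07 for all. mdm-miR319a was at -0.48, cme-miR319a at -0.59 and cme-miR319c at -0.14, none with an adjusted p under 0.05 by edgeR. The 12 auxin-related sequences had a median of 0.12 with 1 call, mdm-miR390e. mdm-miR167g, of the family that acts on ARF6 and ARF8, was at 0.03, mdm-miR160d at -1.42 on few reads, and mdm-miR393c, of the regulators of the auxin receptor TIR1, at -0.77 with all Stage 4 libraries below those of Stage 2 (edgeR adjusted p = 0.783).

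The 32 sequences of the meristem and polarity families had no call and a median of -0.17. mdm-miR171b, which acts on GRAS factors, was at -0.13, mdm-miR394a at -0.23, mdm-miR396d, which acts on growth-regulating factors, at -0.10, and ath-miR165a at -0.46. The age and flowering families had 7 sequences tested, no call and a median of -0.10. gma-miR156k, which acts on SPL factors, was at -0.10, mdm-miR172m, which acts on AP2-like factors, at -0.40 with 0 to 14 reads a library, and mdm-miR535d at -0.66. The stages overlapped in all 7.

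The phenylpropanoid, laccase and copper list had 6 sequences tested, no call and a median of -0.17, with ath-miR858b at 0.52, mdm-miR398c at -1.35 and mdm-miR408c at 0.62, the last 2 on few reads. The resistance gene families had 6 tested, no call and a median of -0.38, with mdm-miR482b at -0.46, mdm-miR482c at -0.31 and mdm-miR2118b at 0.43. The nutrient list had 3 tested and no call, with mdm-miR827 at 1.92 and mdm-miR399i at -1.34 beside mdm-miR395l, and its single miR169 sequence with a read, mdm-miR169f, was too rare to be tested. The small RNA pathway list, which acts on the messengers of DICER-LIKE and ARGONAUTE proteins, had 5 tested, no call and a median of -0.20, with mdm-miR162a at -0.30, mdm-miR168b at -0.20 and mdm-miR403a at -0.59.

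Of the 10 sequences with no role stated here, 1 was called, mdm-miR5225c, and the median was -0.24. mdm-miR1511 was at 0.12, mdm-miR7120a-3p at -0.19, mdm-miR7121e at -1.03, peu-miR2910 at 0.16, mtr-miR4414a-5p at -0.32 and mdm-miR477b at -2.22, and none of these passed an adjusted p of 0.05 by edgeR. For mdm-miR477b the reads were 43, 29 and 33 at Stage 2 and 14, 8 and 0 at Stage 4, without overlap. Without libraries D and L the log2 fold changes of 10 uncalled sequences of these lists changed sign. They were 0.29 for mdm-miR7121e, 0.95 for mtr-miR4414a-5p, 0.39 for mdm-miR482b and 0.10 for mdm-miR398c, and cme-miR319a, gma-miR156k, mdm-miR171b, mdm-miR394a, mdm-miR482c and mdm-miR7120a-3p were the others.

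**Figure D4:**
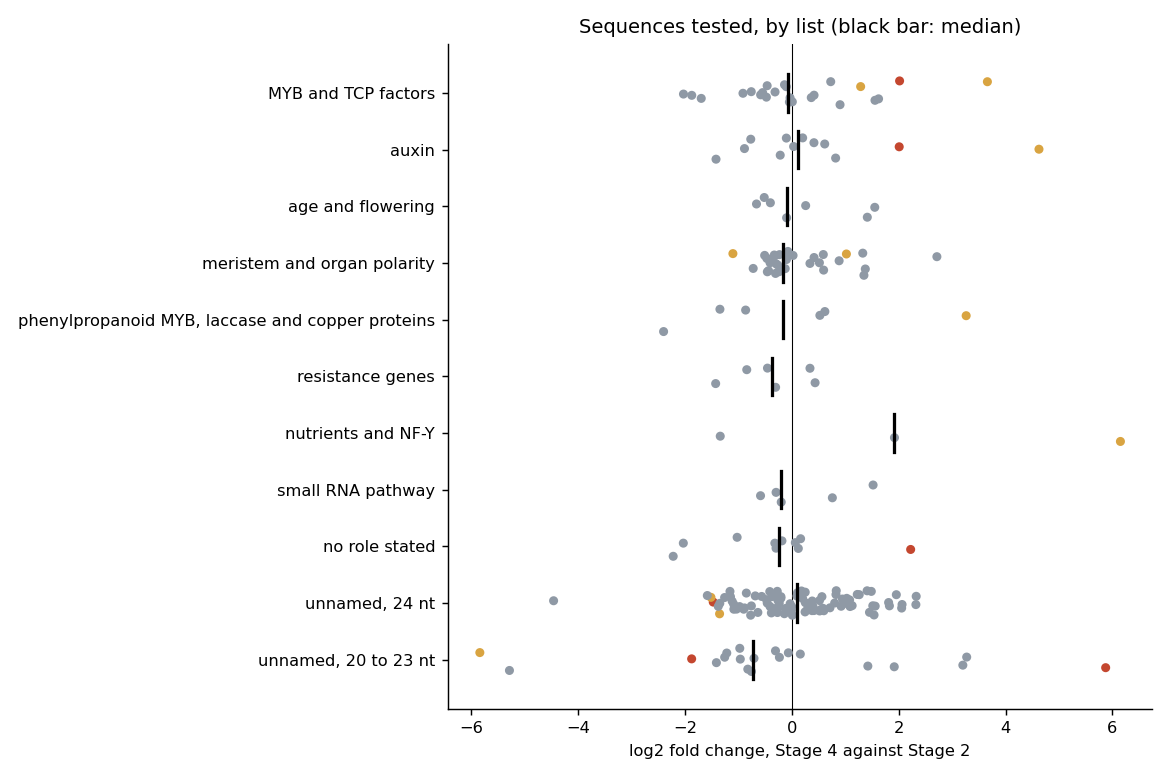
Log2 fold change, Stage 4 against Stage 2, of the sequences tested in each list, each point 1 sequence (red, adjusted p under 0.05; ochre, unadjusted p of 0.05 or less; grey, neither) and each black bar the median of the list. The medians lie between -0.73 and 0.12 except for the 3 nutrient sequences.

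Sequences without a database name made up 113 of the 238 tested. The 93 of 24 nucleotides had 1 call, t00205877_x43290, with 48 above and 45 below 0 and a median of 0.10. The 20 of 20 to 23 nucleotides had 1 call in each direction, t11329296_x5768 and t08515395_x8579, and a median of -0.73, with 6 above and 14 below 0. As a share of the reads outside miR166, 24-nucleotide reads were 8.16% ± 2.56 (SD, n = 3) at Stage 2 and 6.89% ± 2.01 at Stage 4. The difference of -1.27 percentage points was within the spread (exact two-sided permutation test, p = 0.5), and as a share of all mature reads it was 0.0628 percentage points in the other direction (p = 0.9).

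Summed by family, 3 of the 164 families tested rose (1.83%) and none fell by edgeR, and 9 of them (5.49%) had an unadjusted p no larger than 0.05. The 3 were t11329296_x5768, standing for itself, miR5225 and miR390. miR5225 was at 950, 771 and 686 CPM in D, E and F and at 3833, 6434 and 3874 CPM in J, K and L (log2 fold change 2.55, SE 0.460, edgeR adjusted p = 8.1e-04). miR390 was at 68.3, 65.0 and 167 CPM against 581, 631 and 426 (log2 fold change 2.44, SE 0.525, edgeR adjusted p = 0.0053). Without library D, and without both D and L, only t11329296_x5768 passed. miR390 also did not pass without library E, when scaled to total mature reads or with the 6 libraries fitted alone.

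A hairpin of the miR482 family, which acts on NBS-LRR resistance genes, lies at chr13:2393892-2394065 and carries mdm-miR482d and mdm-miR482b on its arms. There mdm-miR482d numbered 305, 590 and 457 reads per 1000 of mdm-miR482b at Stage 2 and 574, 604 and 1382 at Stage 4, and the stages overlapped.

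**Figure D5:**
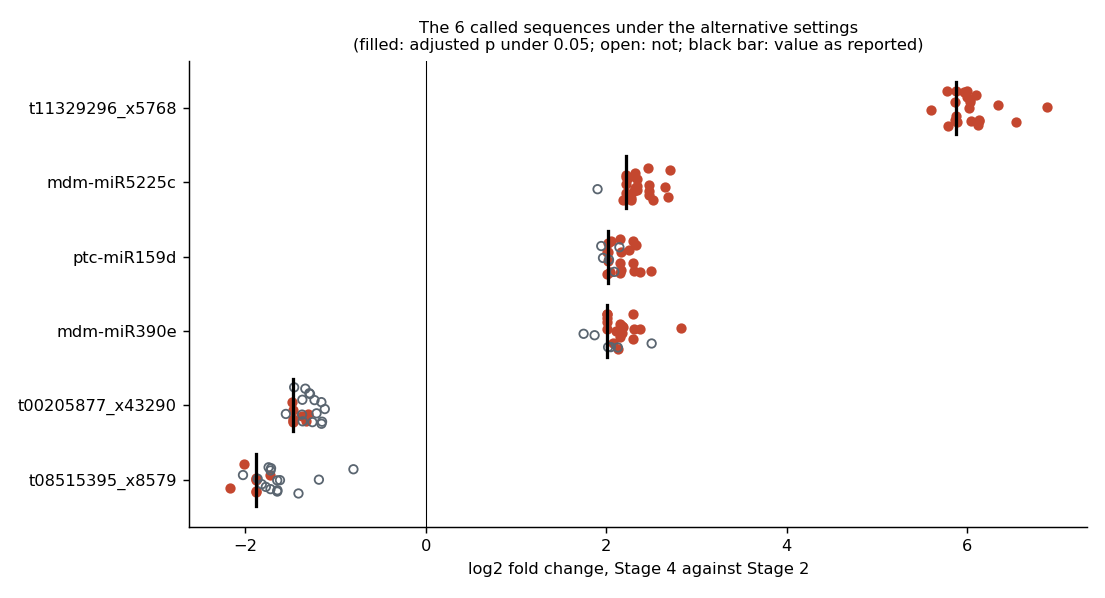
Log2 fold change, Stage 4 against Stage 2, of the 6 called sequences under each alternative setting (points, filled where the adjusted p was under 0.05 and open where it was not) and as reported (black bars). t11329296_x5768 is filled throughout, t00205877_x43290 and t08515395_x8579 are open in most settings, and no point crosses 0.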

How the data were processed

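Small RNAs of 12 apple bud libraries were isolated with TraPR and sequenced as single reads. The authors identified mature sequences with Mir-Island 2.0 against miRBase, PNRD and the GDDH13 v1.1 genome, and the submitters' processing notes name CASAVA and Bowtie 0.12.9. The deposited counts are raw reads per mature sequence. Trimming and mismatch settings are not given in the sources used here. Of the de novo lines 4 were empty. The count columns carry library numbers but no sample names, and were tied to stages through the authors' list of libraries. Only 1 measure per table was used, and the other 48 per-sample columns (RPM and star reads) were not used here.

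Known and de novo tables were joined to 1 row per distinct sequence (370, of which 38 were in both). Counts of all 12 libraries were fitted with a mean per stage in edgeR 4.0.16 (R 4.3.3), with TMM, filterByExpr (minimum count 10, minimum total 15), quasi-likelihood F tests and Benjamini-Hochberg adjustment. Shares were compared by exact permutation of 3 against 3 libraries. DESeq2 1.42.0, other scalings and filters and left-out libraries were alternatives. Ratios are reads over reads within a library. Depth limits counts, and the limits for a count of 0 rest on 3 counts and cover counting error only. The fit was tested on simulated counts. Their spread followed the trend with abundance alone, and the makeup of libraries D and L was not reproduced. Changed sequences were picked above a low level, so the shares called hold for these settings only. At a log2 change of 2, 8 of 38 changed sequences were called (21.1%), and 58 of 194 in a larger set (29.9%). At a log2 change of 4, 31 of 36 were called (86.1%). A sequence without a call may therefore still have changed.

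The members and lists were chosen with earlier results of these data known. Named are sequences with an adjusted p under 0.05, those with an unadjusted p of 0.05 or less up to 30 in all, the 10 with most reads over the 6 libraries and the most abundant of each listed family. Near-identical sequences may be named beside them.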

Additional observations from a re-analysis of the deposited data

How the results depend on the processing

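The 6 called sequences kept their direction in every alternative run. t11329296_x5768 passed in 23 of 23 settings, mdm-miR5225c in 23 of 24, ptc-miR159d in 19, mdm-miR390e in 18, and t00205877_x43290 and t08515395_x8579 in 8 of 23 each. The count of 6 fell to 3 when scaled to total mature reads, 2 when scaled to the reads of the sample table and 2 with the 6 libraries alone. It ranged from 1 to 6 without 1 library, being 3 without E or J and 1 without K. The known table alone gave 3, mdm-miR5225c, ptc-miR159d and mdm-miR390e. The other called sequences have no database name and are not in that table, so they could not be called there. All calls left by the 4 other scalings were higher ones. Against TMM, the change in mean effective library size alone would raise log2 fold changes under each of these scalings. That shift was 0.12 (median of ratios), 0.36 (total mature reads), 0.15 (reads outside miR166) and 0.08 (sample table). The median log2 fold change of the sequences tested, -0.07 under TMM, was 0.07, 0.42, 0.08 and 0.03 in the same order. The cause was not tested. Families gave 1 to 4 calls without 1 library and 1 without D and L, the latter chosen after seeing the data. The 24-nucleotide share became 0.0628 percentage points higher when taken over all mature reads. No paired analysis was possible because the count columns carry no replicate numbers. The planned test of star reads and the scaling to totals behind the RPM were not run, since those columns were not used here.

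Among the 51 named sequences tested, 1054 of 1202 values kept direction and call, and 103 changed sign, in 24 sequences that were not called. Under no filter these were mdm-miR166d 0.0021, cme-miR319c 0.18, gma-miR156k 0.12, mdm-miR171b 0.11, mdm-miR394a 0.020, mdm-miR396d 0.23, mdm-miR162a 0.040, mdm-miR168b 0.12 and mdm-miR7120a-3p 0.059. Under scaling to total mature reads these were mdm-miR159d 0.036, mdm-miR482b 0.18, mdm-miR482c 0.32, cme-miR319c 0.26, gma-miR156k 0.48, mdm-miR172m 0.23, mdm-miR171b 0.48, mdm-miR394a 0.44, mdm-miR396d 0.26, mdm-miR7120a-3p 0.42 and mtr-miR4414a-5p 0.43. Under leaving out D and L these were mdm-miR482b 0.39, mdm-miR482c 0.47, cme-miR319a 0.057, gma-miR156k 0.47, mdm-miR171b 0.58, mdm-miR394a 0.39, mdm-miR398c 0.10, mdm-miR7120a-3p 0.51, mdm-miR7121e 0.29 and mtr-miR4414a-5p 0.95. Under scaling to reads outside miR166 these were cme-miR319c 0.0030, mdm-miR171b 0.011 and mdm-miR396d 0.025. Under at least 10 reads in each of the 6 libraries these were cme-miR319c 0.019, gma-miR156k 0.0031, mdm-miR396d 0.049 and mdm-miR168b 0.035. Under median-of-ratios scaling these were mdm-miR396d 0.0087 and mdm-miR168b 0.079. Under DESeq2 these were mdm-miR396d 0.0087 and mdm-miR168b 0.080. Under scaling to the reads of the sample table these were mdm-miR168b 0.025. Leaving out 1 library at a time gave these lowest to highest values. ath-miR165a -1.04 to 0.39, cme-miR319a -0.77 to 0.15, cme-miR319c -0.15 to 0.21, gma-miR156k -0.78 to 0.55, mdm-miR1511 -0.14 to 0.72, mdm-miR159d -0.40 to 0.15, mdm-miR162a -0.42 to 0.16, mdm-miR166d -0.79 to 0.45, mdm-miR167g -0.17 to 0.59, mdm-miR168b -1.41 to 0.56, mdm-miR171b -0.38 to 0.41, mdm-miR172m -2.11 to 0.54, mdm-miR319a -0.63 to 0.056, mdm-miR394a -0.68 to 0.57, mdm-miR396d -0.23 to 0.28, mdm-miR408c -0.59 to 4.96, mdm-miR482b -0.72 to 0.15, mdm-miR482c -0.57 to 0.20, mdm-miR535d -1.48 to 0.18, mdm-miR7120a-3p -0.38 to 0.36, mdm-miR7121e -1.28 to 0.13, mtr-miR4414a-5p -0.80 to 0.65, sit-miR05-npr -1.38 to 0.055.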
